A study of Saccharomyces cerevisiae with 4 samples.

Results

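The genes described here build the sugar chains of yeast glycoproteins, and the list was drawn up by gene name, with earlier results of these data known. The list holds 47 genes of the 5449 that the array's probe table and the *S. cerevisiae* gene table could name: 15 for the dolichol-linked precursor of N-glycans and its sugar donors (dolichol steps), 9 subunits of the oligosaccharyltransferase (OST), 6 protein O-mannosyltransferases (PMT) and 17 Golgi enzymes. Each gene was read by 1 probe set, and no probe set was marked as shared with another gene. The samples were exponential cultures of the laboratory strain W303-1A (mating type a, with *ura3-1*, *trp1-1*, *can1-100* and *ade2-1* and mutant *leu2* and *his3* in all of them), in minimal medium with 2% glucose and no uracil. The RECQL5 group is 3 arrays of cells with pCM189::RECQL5-FLAG, which express human RECQL5, a RecQ family helicase that binds RNA polymerase II, from a tet promoter left on by growth without doxycycline (biological replicates 1, 2 and 3 by their titles, although the source names of replicates 2 and 3 read tetp::RECQL6 and tetp::RECQL7), and for WT a single array was made from cells carrying pCM189 with no insert. The comparison asks how the human helicase alters transcript levels in yeast.

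In yeast, an N-glycan is first assembled on dolichol, a lipid of the endoplasmic reticulum (ER) membrane. Enzymes on the cytosolic face add N-acetylglucosamine and mannose from nucleotide sugars, the lipid is flipped, and enzymes on the lumenal face add more mannose and then glucose from dolichol-bound donors. The OST moves the finished chain to asparagine residues of proteins entering the ER, while PMT enzymes put mannose on serine and threonine from the same dolichol-bound mannose. Golgi mannosyltransferases then extend both kinds of chain, and the long mannans that result cover the outer layer of the cell wall.

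Of the 47 genes, 6 fell and 2 rose in RECQL5 cells, and those 8 were spread over 3 of the 4 steps. Transcripts for the dolichol-phosphate mannose synthase Dpm1, the glucosyltransferase Alg6, the N-acetylglucosaminyltransferase subunit Alg13, the O-mannosyltransferase Pmt3, the mannosylphosphate factor Mnn4 and the Golgi mannosyltransferase Ktr1 were lower, and those for Alg14, the membrane partner of Alg13, and for the mannan polymerase subunit Mnn10 were higher. No OST gene was called. A gene is called here when its adjusted p in limma is at most 0.1 (Benjamini-Hochberg over all tested genes) and its level differs at least 1.5-fold, which is 0.58 on the log2 scale. Tested genes are the 4128 whose mean RMA log2 level reached log2(600), 9.23, and 45 of the 47 genes were among them. The 8 calls are 17.8% of the tested members, against 17.4% of all tested genes, so the list as a whole was called about as often as any other genes. Members called lower made up 13.3%, against 7.80% of all tested genes, and members called higher 4.44%, against 9.59%.

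Most members differed by less than 1.5-fold, although the arrays of RECQL5 cells were close to each other. At any fold, 29 of the 45 tested members passed an adjusted p of 0.1 (limma), 64.4% beside 63.8% of all tested genes. Of these 17 were lower (37.8%, beside 29.2% of all tested genes) and 12 higher (26.7%, beside 34.6%). All 3 RECQL5 arrays lay on one side of WT for 37 members, or 82.2% beside 86.1% of tested genes. They lay below WT for 20 members (44.4%, beside 40.6%) and above it for 17 (37.8%, beside 45.5%). The median change was -0.03 for the members and 0.02 for all tested genes, with quartiles of -0.41 and 0.15 for the members and of -0.23 and 0.29 for all tested genes. The SD over the 3 RECQL5 arrays had a median of 0.048 over all 47 genes, untested ones included, against 0.061 over all tested genes. In the list it was largest for *PMT5* (0.172) and *OCH1* (0.150). The tested members also had a higher median level, 11.36 beside 10.73 for all tested genes.

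**Figure D1:**
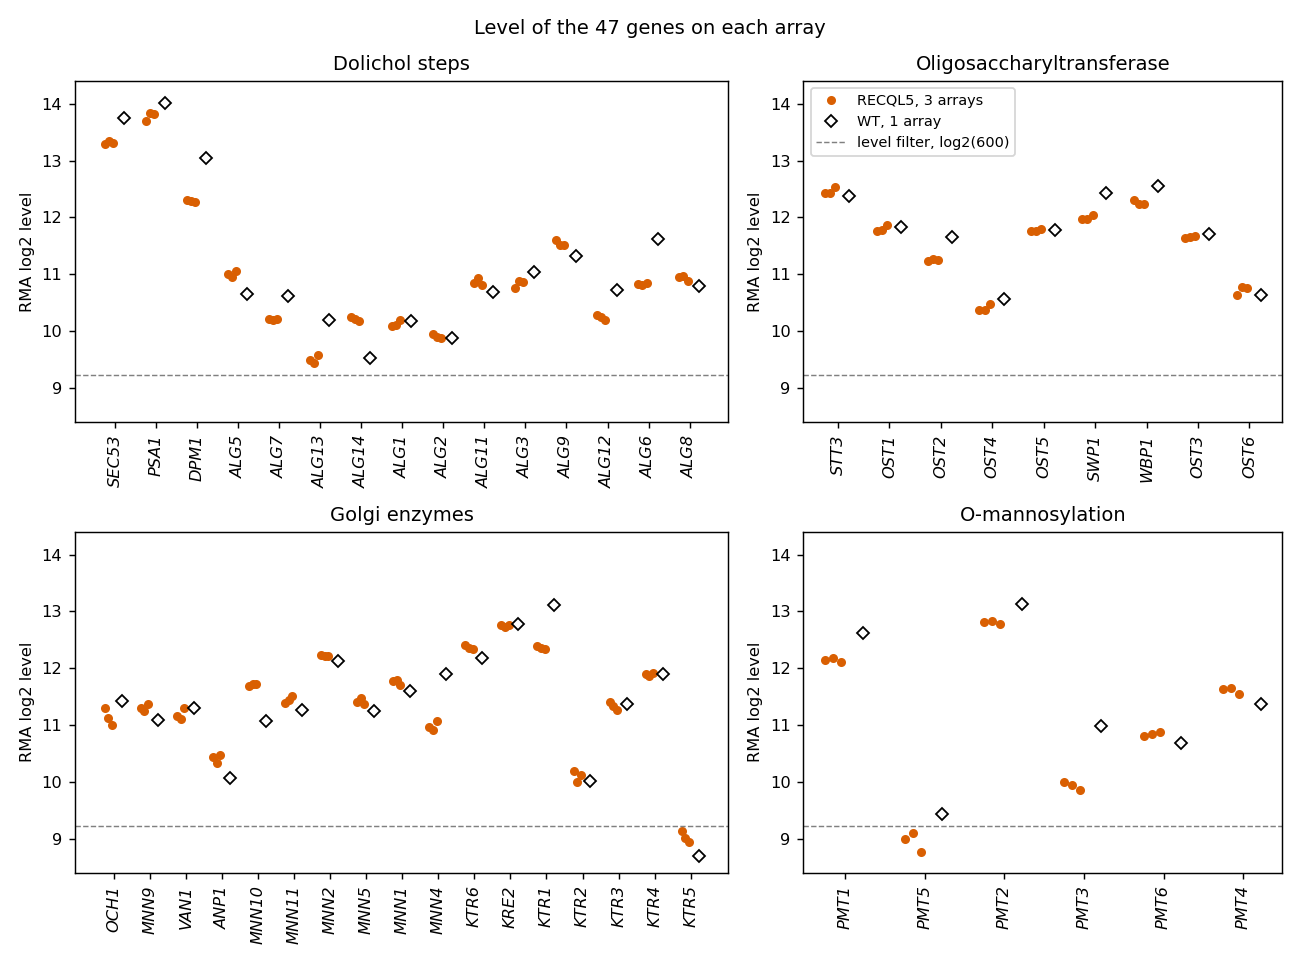
RMA log2 level (y axis) of each of the 47 genes (x axis), with the 3 RECQL5 arrays as filled points and the WT array as an open diamond to their right, by step of the pathway. The dashed line is the level filter of 9.23, which the mean of *PMT5* and of *KTR5* did not reach. For *DPM1*, *ALG6*, *PMT3*, *MNN4* and *KTR1* the RECQL5 points lie well below the diamond.

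WT has no replicate, so each test sets 1 array against the spread among 3 RECQL5 cultures and assumes that WT varies like them. The study states that its control was standardized with published arrays, and it is not known whether the WT values used here include that step. RNA was pooled from whole cultures, so a transcript lost from some cells and one lowered in every cell cannot be told apart. The 3 arrays of RECQL5 cells had medians over all probe sets of 7.14, 7.08 and 7.01, against 6.93 for WT. The array's 18 probe sets for bacterial and phage transcripts, which are added to the labelled RNA as hybridization controls, read higher than WT by a median of 0.17 (mean of the RECQL5 arrays, with 17 of 18 above WT). By array this median was 0.20, 0.05 and 0.25 for RECQL5 replicates 1, 2 and 3. Probe sets on 1 array are not independent readings. Of all calls, 55.2% were higher as deposited. The share was 28.5% after centring each array on its median over all probe sets and 27.3% after scaling to the hybridization controls. The median change of all tested genes was -0.12 and -0.13 under these 2 scalings. Of the 10928 probe sets, 5498 were paired with 1 *S. cerevisiae* gene, and the medians lay under the level filter of 9.23. Median centring was therefore not a centring on the tested genes. The 5 genes expressed in mating type a cells read 11.17 to 13.68 on the 4 arrays and the 3 genes of mating type alpha read 5.75 to 7.96, as a check of the labelled mating type, although levels of different probe sets are not on one scale. For *ACT1*, the control probe set for the 3′ part read above that for the 5′ part by 0.78, 0.83 and 0.85 on the RECQL5 arrays and by 0.77 on the WT array, and for *SRB4* by 3.94, 3.86 and 4.16 on the RECQL5 arrays and by 4.30 on the WT array. The 5′ set of *SRB4* itself read 6.42, 6.47 and 6.20 on the RECQL5 arrays and 5.78 on the WT array. Each was below the median of its array over all probe sets. For *WBP1*, a member of the list, the 3′ set read above the 5′ set by 2.33, 2.18 and 2.31 on the RECQL5 arrays. On the WT array the difference was 2.05, smaller than on all 3 RECQL5 arrays. The part of RNA quality in the results was not tested beyond these values.

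Mannose reaches the dolichol pathway through a chain of donor enzymes, and of the 3 genes for it on the list only *DPM1* was called. *DPM1* (YPR183W), which makes dolichol-phosphate mannose, the donor for all lumenal mannosylation and for O-mannosylation, read 12.30, 12.28 and 12.26 on the RECQL5 arrays, against 13.04 on the WT array. The WT level was 1.69-fold that of RECQL5 (log2 change -0.76 ± 0.06 SE, adjusted p = 0.000974, limma). *SEC53* (YFL045C), the phosphomannomutase gene, read 13.30, 13.35 and 13.31 on the RECQL5 arrays, against 13.74 on the WT array. Its change of -0.42 ± 0.06 passed the adjusted p (0.00376, limma) but not 1.5-fold, as did that of *PSA1* (YDL055C), the GDP-mannose pyrophosphorylase gene (-0.23 ± 0.08, adjusted p = 0.0527). *ALG5*, which makes the glucose donor dolichol-phosphate glucose, differed the other way, by 0.36 ± 0.07 (adjusted p = 0.00899, limma), also under 1.5-fold.

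On the cytosolic face, the partners of a single enzyme changed in opposite directions. Alg13 and Alg14 together add the second N-acetylglucosamine: Alg13 carries the catalytic part and Alg14 anchors it to the ER membrane. *ALG13* (YGL047W) read 9.48, 9.44 and 9.57 on the RECQL5 arrays, against 10.20 on the WT array, and fell by 0.70 ± 0.08 on the log2 scale (adjusted p = 0.00168, limma). *ALG14* (YBR070C) read 10.25, 10.21 and 10.18 on the RECQL5 arrays, against 9.53 on the WT array, and rose by 0.68 ± 0.06 (1.61-fold, adjusted p = 0.00118). The change of *ALG14* exceeded that of *ALG13* by 1.43, 1.44 and 1.27 on the 3 RECQL5 arrays (mean 1.38 ± 0.09 SD over these arrays). By construction, no scaling of whole arrays can alter this difference. The 3 values share the single WT reading of each gene, so their SD leaves out the variation of WT. The difference between the 2 genes was not tested by itself. The rise of *ALG14* alone was under 1.5-fold after median centring (0.54) and after scaling to the hybridization controls (0.53).

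The other genes of the cytosolic face differed by less than 1.5-fold. *ALG7* (YBR243C), which starts the precursor and is the target of tunicamycin, read 10.21, 10.19 and 10.22 on the RECQL5 arrays and 10.62 on the WT array (-0.41 ± 0.06, adjusted p = 0.00381, limma, under 1.5-fold). The mannosyltransferase genes *ALG1*, *ALG2* and *ALG11* differed by -0.04, 0.03 and 0.17, with adjusted p of 0.683, 0.705 and 0.0992 (limma).

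Among the lumenal enzymes, the gene for the first glucose stood apart from its neighbour in the pathway. *ALG6* (YOR002W), which adds that glucose, read 10.83, 10.80 and 10.84 on the RECQL5 arrays, against 11.63 on the WT array. The WT level was 1.75-fold that of RECQL5 (-0.80 ± 0.06, adjusted p = 0.000904, limma), the lowest change among the dolichol steps. *ALG8*, which adds the second glucose, read 10.96, 10.96 and 10.88 on the RECQL5 arrays and 10.79 on the WT array (0.14 ± 0.07, adjusted p = 0.131, limma). The changes of *ALG6* and *ALG8* differed by -0.95 ± 0.06 (SD over the 3 RECQL5 arrays, all set against the same WT array), which was not tested. Of the lumenal mannosyltransferase genes, *ALG12* came nearest to a call (-0.49 ± 0.07, adjusted p = 0.00305, limma). It was called lower after median centring (-0.63) and after scaling to the hybridization controls (-0.64), and *ALG3* (-0.20) and *ALG9* (0.22) lay on either side of WT. Over the 15 dolichol-step genes, all tested, 3 fell and 1 rose (26.7%, beside 17.4% of all tested genes), with a median change of -0.20.

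**Figure D2:**
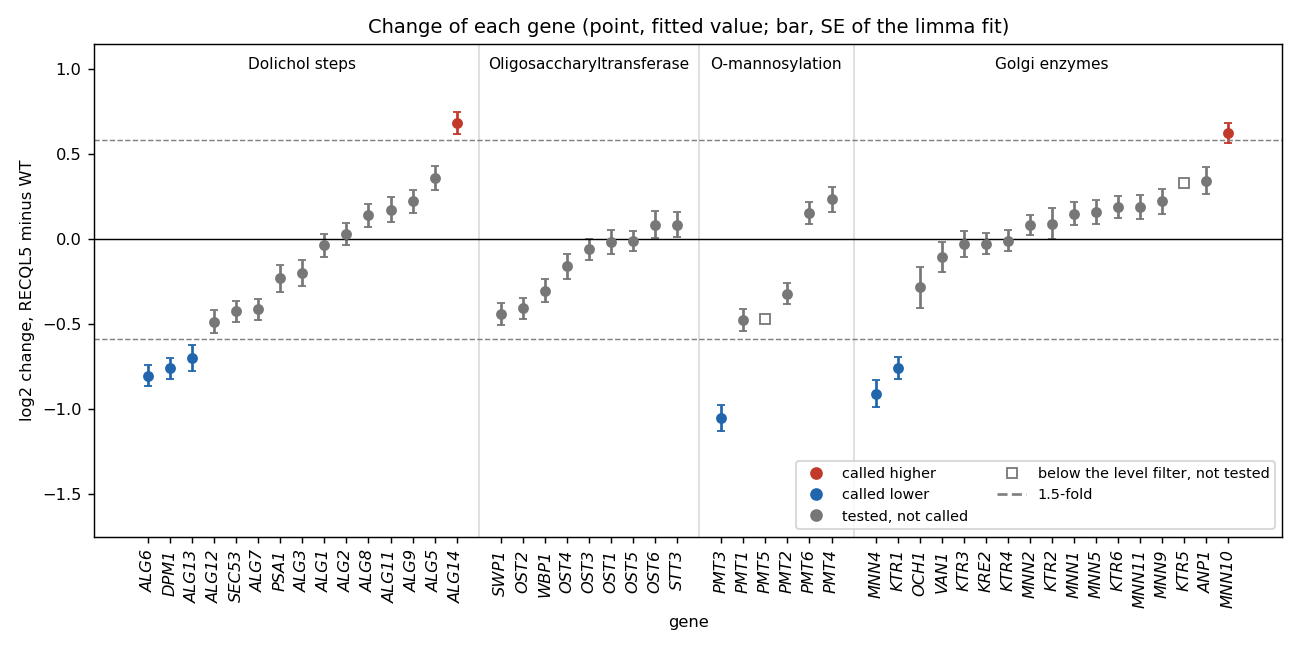
Log2 change, RECQL5 minus WT (y axis), of each gene (x axis), sorted within each step of the pathway, with bars for the SE of the limma fit. Red points were called higher (*ALG14*, *MNN10*), blue points were called lower (6 genes), grey points were tested and not called, open squares were below the level filter, and the dashed lines mark 1.5-fold.

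The OST is a complex of 8 subunits, in which Ost3 and Ost6 take the same place in alternative forms. None of its 9 genes was called by limma, beside 17.4% of all tested genes. At an unadjusted p under 0.05 (limma) there were 3, all lower than WT. The same number passed an adjusted p of 0.1 at any fold, 33.3% of the complex beside 63.8% of all tested genes. *SWP1* (YMR149W) had the largest change, with 11.97, 11.98 and 12.04 on the RECQL5 arrays, against 12.44 on the WT array (-0.44 ± 0.06, adjusted p = 0.00389, limma). *OST2* (-0.41 ± 0.06, adjusted p = 0.00404) and *WBP1* (-0.30 ± 0.07, adjusted p = 0.013) were the others. *SWP1* was called lower after scaling to the hybridization controls (-0.59), the only OST call under any alternative. *STT3*, the catalytic subunit gene, had the highest change of the complex (0.09 ± 0.07, adjusted p = 0.349, limma), with 12.44, 12.44 and 12.54 on the RECQL5 arrays and 12.38 on the WT array. The genes of the remaining subunits, *OST1*, *OST3*, *OST4*, *OST5* and *OST6*, differed by -0.16 to 0.09, and their adjusted p lay between 0.12 and 0.893 (limma). *OST3* and *OST6*, whose products decide which proteins are glycosylated by each form, differed by -0.06 and 0.09.

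*WBP1* was measured more than once, because the array carries control probe sets for 3 parts of it that lie outside the tested genes. The set for the 3′ part read 12.39, 12.34 and 12.38 on the RECQL5 arrays and 12.68 on the WT array, a difference of -0.31 close to the -0.30 of the tested probe set. The set for the middle part differed by -0.37. For the 5′ part the levels were 10.06, 10.16 and 10.07 on the RECQL5 arrays and 10.63 on the WT array, a difference of -0.53. All 4 probe sets therefore placed the RECQL5 arrays below WT, and the 5′ set gave the largest difference, while the 3′ set read further above the 5′ set on the RECQL5 arrays than on the WT array. The part of RNA quality in the differences of *WBP1* was not tested.

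Protein O-mannosyltransferases form a PMT1 family (*PMT1*, *PMT5*), a PMT2 family (*PMT2*, *PMT3*, *PMT6*) and *PMT4*, and members of the first and second families act as pairs. *PMT3* (YOR321W) had the largest change of all 47 genes. It read 9.99, 9.94 and 9.86 on the RECQL5 arrays, against 10.98 on the WT array, so that the WT level was 2.07-fold that of RECQL5 (-1.05 ± 0.08, adjusted p = 0.000904, limma). Of the 4128 tested genes, it ranked 90 from the lowest change. *PMT2* (YAL023C), its closest relative in function, read 12.81, 12.84 and 12.78 on the RECQL5 arrays and 13.13 on the WT array (-0.32 ± 0.06, adjusted p = 0.00959, limma), and the change of *PMT3* lay below that of *PMT2* by 0.67 to 0.78 on each RECQL5 array.

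*PMT1*, whose product pairs with Pmt2 as the main activity, read 12.14, 12.18 and 12.11 on the RECQL5 arrays, against 12.62 on the WT array (-0.48 ± 0.07, adjusted p = 0.00305, limma). It passed 1.5-fold after median centring (-0.62), after scaling to the hybridization controls (-0.63) and with a coding length trend removed (-0.59). *PMT5*, the partner of *PMT3*, was below the level filter and was not tested, with 9.0, 9.10 and 8.77 on the RECQL5 arrays and 9.43 on the WT array. *PMT4*, whose product acts as a homodimer on membrane-bound proteins, differed by 0.23 ± 0.07 (adjusted p = 0.0385, limma) and *PMT6* by 0.15 ± 0.07 (adjusted p = 0.0949). The levels of all 3 RECQL5 arrays were below WT for *PMT1*, *PMT2*, *PMT3* and *PMT5* and above it for *PMT4* and *PMT6*. Over the 5 tested genes the median change was -0.32, and it was -0.40 when *PMT5* was included.

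In the Golgi, Och1 begins the outer chain of N-glycans and the polymerases that contain Mnn9 elongate it. *OCH1* read 11.30, 11.12 and 11.00 on the RECQL5 arrays and 11.42 on the WT array, and its difference of -0.28 ± 0.12 passed the adjusted p (0.0996, limma) but not 1.5-fold. *MNN10* (YDR245W), a subunit of the second mannan polymerase, read 11.68, 11.71 and 11.71 on the RECQL5 arrays, against 11.08 on the WT array. It rose by 0.63 ± 0.06 (1.54-fold, adjusted p = 0.00126, limma). Its rise was under 1.5-fold after median centring (0.48) and after scaling to the hybridization controls (0.47). The other subunit genes of that polymerase on the list, *MNN9* (0.22), *ANP1* (0.35) and *MNN11* (0.19), were under 1.5-fold. They were above WT on all 3 RECQL5 arrays, as were 45.5% of all tested genes. After median centring they differed by 0.08, 0.20 and 0.05. *HOC1*, a further subunit gene of that polymerase outside the list, differed the other way (-0.56, under 1.5-fold). *VAN1*, the partner of Mnn9 in the first polymerase, differed by -0.10 ± 0.09 (adjusted p = 0.374, limma).

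Of the genes that decorate the mannan with mannosylphosphate, 1 fell and the other lay slightly above WT. *MNN4* (YKL201C), which encodes a factor required for this transfer, read 10.97, 10.92 and 11.07 on the RECQL5 arrays, against 11.89 on the WT array. The WT level was 1.88-fold that of RECQL5 (-0.91 ± 0.08, adjusted p = 0.00107, limma). *KTR6* (YPL053C), also known as MNN6 and thought to be the transferase itself, read 12.41, 12.36 and 12.35 on the RECQL5 arrays and 12.18 on the WT array (0.19 ± 0.06, adjusted p = 0.0517, limma). The change of *MNN4* was below that of *KTR6* by a mean of 1.10, which was not tested by itself. The difference was -1.10 ± 0.10 (SD over the 3 RECQL5 arrays, all set against the same WT array). *MNN2* and *MNN5*, which start and extend the side branches, and *MNN1*, which caps them, differed by 0.09 to 0.16 and stayed under 1.5-fold.

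**Figure D3:**
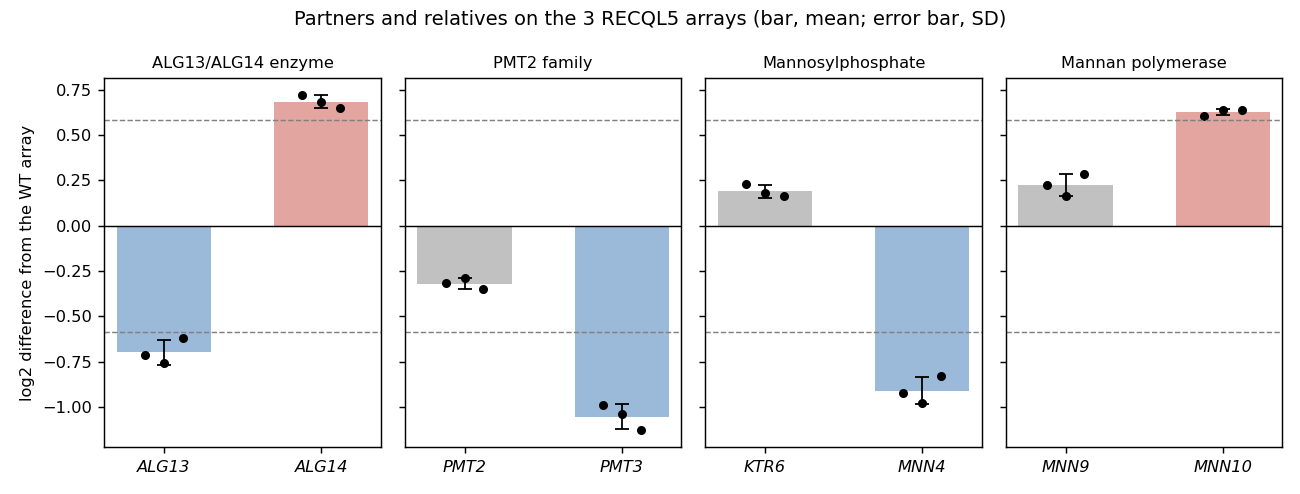
Log2 difference from the WT array (y axis) of genes whose products act together or are related. Points are the 3 RECQL5 arrays, bars their mean and error bars their SD. All points share the 1 WT array, and pairs were picked after their values were seen. *ALG13* lies at -0.70 and *ALG14* at 0.68, *PMT3* at -1.05 and *PMT2* at -0.32, and *MNN4* at -0.91 and *KTR6* at 0.19, with dashed lines at 1.5-fold.

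Of the KTR family, mannosyltransferases that lengthen O-linked chains and the outer parts of N-glycans, *KTR1* was the one called. *KTR1* (YOR099W) read 12.39, 12.35 and 12.33 on the RECQL5 arrays, against 13.12 on the WT array, and the WT level was 1.69-fold that of RECQL5 (-0.76 ± 0.06, adjusted p = 0.00104, limma). *KRE2* (YDR483W), with which *KTR1* shares much of its function, read 12.75, 12.73 and 12.77 on the RECQL5 arrays and 12.77 on the WT array (-0.03 ± 0.06, adjusted p = 0.747, limma). *KTR3*, a further enzyme of the same kind, differed by -0.03, *KTR2* by 0.09 and *KTR4* by -0.01, and for each of these 3 genes the RECQL5 arrays fell on both sides of WT. *KTR5* was not tested, with 9.14, 9.01 and 8.94 on the RECQL5 arrays and 8.70 on the WT array. Over the 16 tested Golgi genes, 2 fell and 1 rose (18.8%, beside 17.4% of all tested genes), and the median change was 0.09 as deposited, -0.055 after median centring and -0.065 after scaling to the hybridization controls.

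The 8 called genes lie on chromosomes II, IV, VII, XI, XV and XVI, and *ALG6*, *PMT3* and *KTR1* share chromosome XV without being neighbours. Of the 16 protein-coding genes next to them in the R64 gene order, 15 were tested and 1 was called, beside 17.4% of all tested genes. That gene was *RRP6* (YOR001W), a nuclear exosome gene beside *ALG6*, which rose by 0.61 where *ALG6* fell. None of the 16 overlaps its member in the gene table. Calls in the same direction as the adjoining member numbered 0, where 7.80% of all tested genes were called lower and 9.59% higher. Under 1.5-fold, *TAT1* beside *ALG14* (0.49), *RPT6* beside *ALG13* (-0.46) and *GDB1* beside *DPM1* (-0.38) differed in the direction of the member. *TOR2* beside *MNN4* (0.22) and *GNT1* beside *PMT3* (0.19) were among those that differed the other way. All 8 calls stood at an adjusted p of 0.01 and without each RECQL5 replicate in turn.

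Other genes of glycosylation and of the related glycosylphosphatidylinositol (GPI) anchors were read from lists of 56 genes, of which 54 had a probe set and 48 were tested. Of these, 6 fell and 1 rose, 14.6% beside the 17.4% of all tested genes. In the list for dolichol and sugar donors, 4 of 12 tested genes fell (33.3%, beside 7.80% of all tested genes) and 0 rose (beside 9.59%). They were *PMI40* (YER003C, -0.91 ± 0.08), the phosphomannose isomerase gene that precedes *SEC53* in mannose donor synthesis, *NUS1* (-0.86 ± 0.08), which encodes a subunit of the enzyme that makes the dolichol backbone, the dolichol kinase gene *SEC59* (-0.62 ± 0.08) and *CAX4* (-0.62 ± 0.07), the gene of the phosphatase that recycles dolichol pyrophosphate, with adjusted p of 0.00105 to 0.00223 (limma). *PMI40* read 11.96, 11.92 and 11.82 on the RECQL5 arrays, against 12.81 on the WT array. *CAX4* read under the level filter on the RECQL5 arrays (9.09, 9.09 and 9.17, with 9.74 on the WT array) and dropped out of the test when each array had to reach the filter.

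Of the 4 tested genes that trim the finished glycan in the ER, 1 was called (25%, beside 17.4% of all tested genes). *GTB1* (YDR221W), the regulatory subunit gene of glucosidase II, read 9.39, 9.50 and 9.45 on the RECQL5 arrays, against 10.47 on the WT array (-1.03 ± 0.07, adjusted p = 0.000869, limma), while *ROT2*, its catalytic subunit gene, differed by -0.06 ± 0.08. Of 8 further tested Golgi genes 0 were called by limma, beside 17.4% of all tested genes, with 5 at an unadjusted p under 0.05. No share over all tested genes was taken at that unadjusted p. The largest differences were those of *HOC1* (-0.56 ± 0.07), another subunit gene of the second mannan polymerase, and of *KTR7* (0.46 ± 0.06), both under 1.5-fold. *HOC1* passed 1.5-fold after cyclic loess, after median centring and after scaling to the hybridization controls. Among 24 tested GPI anchor genes, *MCD4* (YKL165C), an ethanolamine phosphate transferase gene, fell and *BST1* (YFL025C), the inositol deacylase gene, rose. These 2 calls are 8.33% of the tested GPI anchor genes, beside 17.4% of all tested genes. That share depends on the fold threshold of 0.585 on the log2 scale, since *GPI18* (0.582) and *GPI1* (0.579) lay just under it. The lowest change not called was that of *GPI16* (-0.43). *MCD4* read 10.43, 10.59 and 10.39 on the RECQL5 arrays, against 11.83 on the WT array (-1.36 ± 0.09, the WT level 2.57-fold that of RECQL5), and *BST1* read 10.53, 10.53 and 10.62 on the RECQL5 arrays, against 9.53 on the WT array (1.03 ± 0.07, 2.04-fold). Both had an adjusted p of 0.000869 (limma).

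**Figure D4:**
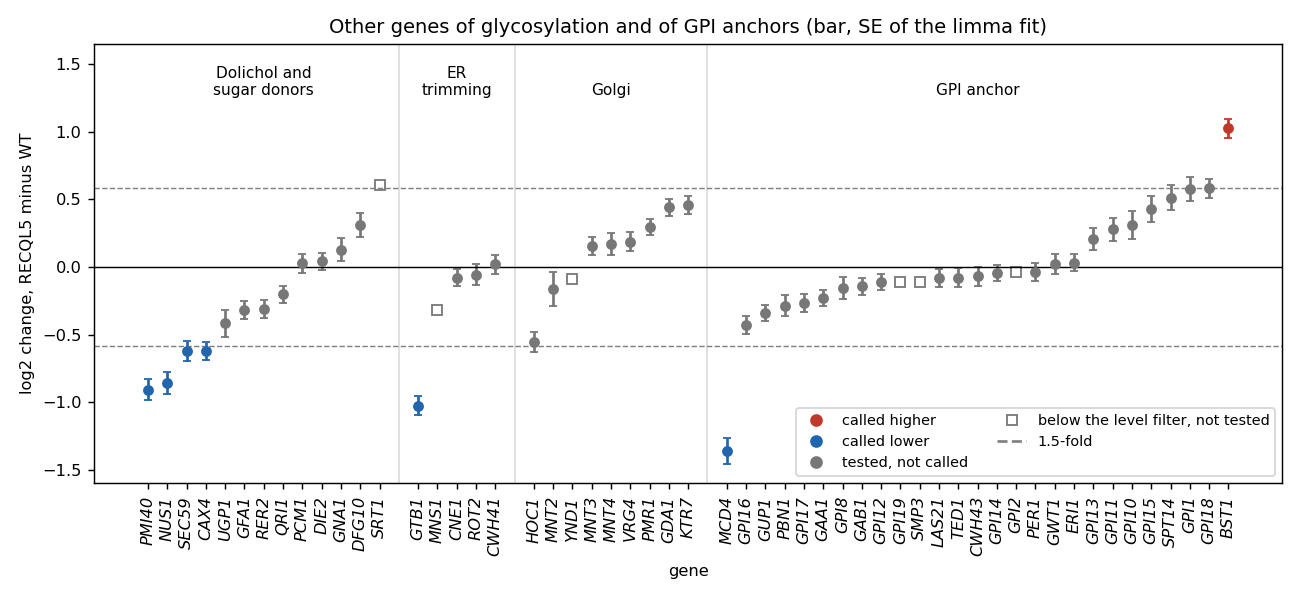
Log2 change, RECQL5 minus WT (y axis), of the other genes of glycosylation and of GPI anchors (x axis), by list and sorted, with bars for the SE of the limma fit; open squares were below the level filter and dashed lines mark 1.5-fold. The 6 blue points (*PMI40*, *NUS1*, *SEC59*, *CAX4*, *GTB1*, *MCD4*) were called lower and the red point (*BST1*) higher.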

How the data were processed

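Total RNA of 4 cultures was hybridized to Affymetrix Yeast Genome 2.0 arrays, 1 sample each. The values deposited by the authors are on the log2 scale, 1 per probe set, and were made by RMA (background correction, quantile normalization and median polish). Versions of RMA and limma are not given in the sources used here. Groups came from the sample titles. Of 10928 probe sets, 5498 were paired with 1 *S. cerevisiae* gene through the platform annotation and the R64 gene table. Each gene was represented by its probe set with the highest mean. Coordinates are not printed because the values name no build, and sequences were not used here.

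RECQL5 was compared with WT in limma 3.58.1 (R 4.3.3; lmFit and eBayes, two-sided) over 4128 genes, with 2 residual degrees of freedom. The level filter and the thresholds follow the study's methods, where one section names a stricter p. The study reported far fewer altered genes than were called here, and more of them down than up. Here 9.59% of all tested genes were called higher and 7.80% lower. The reason for this difference was not tested. The number of arrays limits the precision. The script was tested on simulated arrays, with WT drawn from the means and the spread of the RECQL5 arrays. That test could not check the assumption that WT varies like them. Values after ± are SE of the fit or, where marked, SD.

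The members and lists were chosen with earlier results of these data known. Named genes are every called member with its levels, the largest rise and fall in each step, members under the filter, and up to 4 called genes of each further list (or 2 where none was called); other members are given by value or range. The pairs, and the further uncalled members given with levels on each array, were picked after their values were seen. Alternatives changed the level filter, normalization, probe set choice, variance model, threshold, replicates and a trend with coding length, and 1 (scaling to hybridization controls) was chosen after seeing the data.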

Additional observations from a re-analysis of the deposited data

How the results depend on the processing

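The 6 falls among the members kept their call under all 14 alternatives, from -0.66 at the least (*ALG13*) to -1.21 at the most (*PMT3*), and the rises of *ALG14* and *MNN10* lost theirs under 2. Only the alternatives for normalization, replicates and coding length altered the fitted change of a member. Those for level filter, probe set choice, variance model and threshold left it as it was, so they bear little on these calls. After median centring, 206 genes were called higher and 516 lower over all genes, and after scaling to the hybridization controls, an alternative chosen after seeing the data, 201 and 536. Members called higher were 0 under both. Both scalings shift all genes of an array by the same amount. The changes of *ALG14* (0.66) and *MNN10* (0.61) relative to the median of all tested genes were therefore bound to stay as deposited. That they did so does not bear on the lost calls. The median change under these 2 scalings was -0.34 and -0.35 for dolichol steps, -0.20 and -0.21 for the oligosaccharyltransferase, -0.46 and -0.47 for O-mannosylation and -0.055 and -0.065 for Golgi enzymes. Cyclic loess gave -0.091 for the oligosaccharyltransferase. For O-mannosylation it was -0.40 with no level filter and with the filter on the WT array, where *PMT5* entered, and -0.42 with a coding length trend removed, which gave 0.034 for Golgi enzymes. For these medians the cause was not tested beyond the construction of each alternative. Without each RECQL5 replicate in turn, the median changes stayed within the spread between arrays. That spread comes from the same 3 arrays, so leaving out 1 of them could hardly exceed it. The other pathway genes called higher were 1 to 2 without each replicate. The second gene was *GPI18* without replicate 2 and *GPI1* without replicate 3. It was 2 with no level filter as well, where *SRT1* entered.

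The mean over probe sets could not alter the members' levels, since they have 1 each. Levels of *PMT5* and *KTR5* near the filter left them untested. No paired analysis was possible because the groups share 1 replicate number, and the WT array could not be left out. Planned descriptions of promoter motifs and of protein identity between members were not run.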
